A study of Mus musculus with 8 samples.

Results

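The 9 genes that encode the neuronal nicotinic acetylcholine receptor subunits (Chrna2, Chrna3, Chrna4, Chrna5, Chrna6, Chrna7, Chrnb2, Chrnb3 and Chrnb4) were taken by symbol from the 56576 rows of the gene table, and each matched a single row. Their ribosome-bound transcripts were compared between controls and Erbb4 conditional mutants. Chrna4 was the only subunit called lower in the mutants (an unadjusted limma p of at most 0.05 and a change of at least 1.5-fold), with a log2 fold change of -0.79 ± 0.30 (SE, n = 4 per genotype), and no subunit was called higher by limma, edgeR or DESeq2. The Chrna4 call did not survive adjustment for all genes tested (limma, Benjamini-Hochberg adjusted p = 0.58), and it was lost when any of 3 single libraries was left out. All 9 subunits had overlapping values in both genotypes.

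Nicotinic receptors are cation channels that open when acetylcholine, or nicotine, binds at the interface between subunits. Chrna4 and Chrnb2 encode the subunits of the main high-affinity heteromeric receptor of the brain, which can also take up the Chrna5 accessory subunit, whereas the Chrna7 product mainly forms homomeric channels that pass calcium readily. Cortical interneurons receive cholinergic input from the basal forebrain, and nicotinic currents are known from several interneuron classes.

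Erbb4 encodes a receptor tyrosine kinase that PV+ interneurons carry at their excitatory synapses. RNA was collected from cortical synaptosomes, a preparation of pinched-off synaptic terminals and their attached postsynaptic membranes, by pulling down ribosomes that carried a haemagglutinin-tagged Rpl22 protein. The 4 control libraries came from Lhx6-Cre;Erbb4+/+;Rpl22HA/HA mice and the 4 mutant libraries from Lhx6-Cre;Erbb4F/F;Rpl22HA/HA mice, all at postnatal day 15, each library from a different brain. Every animal in both genotypes therefore carried Lhx6-Cre and was homozygous for the tagged ribosomal allele. Lhx6-Cre acts in interneurons of medial ganglionic eminence or preoptic area origin (MGE/POA-derived), which include the PV+ and SST+ classes, so a single Cre set both which ribosomes were tagged and where Erbb4 was removed. In these bulk synaptic fractions, fewer tagged cells or synapses of a type and less RNA per cell cannot be told apart. Males and females were used without distinction, and no library of unbound RNA or of mice without Cre was used here.

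Between 51010687 and 80226984 reads fell on genes per library, and 28247 to 34364 genes were above 0. Values are normalized counts, in which 1 read was worth 0.855 to 1.36 units depending on the library. Erbb4 itself was at 1640, 5377, 4306 and 3034 normalized counts in controls 1, 3, 4 and 5 and at 1711, 1648, 1233 and 1048 in mutants 2, 3, 4 and 5 (log2 fold change -1.25 ± 0.34 (SE), limma adjusted p = 0.58), a difference that was called and that was -1.58 without the library labelled control 1. The library labelled control 1 thus lay within the mutant range for the targeted gene, and it also had the fewest genes above 0. Its low value was not particular to Erbb4, as its Chrna7 (77.7) lay below all other libraries. Its Pvalb (3219), in contrast, lay above every mutant (159 to 1439). Erbb4 reads were counted on constitutive regions of the gene and not on the floxed segment alone. Whether those regions hold the floxed segment is not given in the sources used here. The Erbb4 counts therefore check the labels in part only. Values without this library are therefore given beside each subunit and ratio. All 7 markers of MGE-derived interneurons were present in the libraries, with summed levels of 27816 to 78051 in controls and 16372 to 42681 in mutants; all 7 had log2 fold changes below 0 (median -0.32), and 0 were called. All 9 markers of GABAergic neurons also had values below 0 (median -0.93, 2 called lower), with sums of 92148 to 331890 against 42164 to 157739. The 8 PV+ interneuron markers lay furthest below 0 of the marker lists (8 of 8 below 0, median -1.26, 4 called lower: Pvalb, Kcnc1, Syt2 and Pthlh), with sums of 23118 to 109975 in controls and 11590 to 38222 in mutants, and Pvalb itself had a log2 fold change of -2.08. Over all genes tested, 46.6% had values below 0, 3.17% were called lower and 3.98% higher. Markers of excitatory neurons, astrocytes, oligodendrocytes, microglia and vessels were abundant too (excitatory markers summed to 115471 to 153321 normalized counts in controls and 111062 to 137821 in mutants), so the RNA was not from tagged interneurons alone. Of 10 endothelial and mural markers, 9 had log2 fold changes above 0 and 4 were called higher (median 0.54), while 3 of 10 oligodendrocyte markers were called lower (median -0.62). The part these shifts play in the subunit values was not tested.

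Calls used the p and fold thresholds of the study's methods, given above, but with limma and not DESeq2, and with a different expression filter. By this rule 7.15% of the 31171 genes tested were called in either direction, and 4.93% of all genes had genotypes that did not overlap. Of the called genes 988 were lower and 1241 higher, whereas most genes called by the study were lower. At an adjusted p under 0.05, 14 genes were left (0.0449%), all lower, and no subunit was among them. Among the subunits, 1 of 9 was called and 0 of 9 had non-overlapping genotypes. Of the 9 log2 fold changes, 7 were below 0, against 46.6% of all genes, and 6 were -0.5 or less, against 19.9% of all genes. The subunit median was -0.79, against 0.06 over all genes. When each library was instead centred on its MGE-derived interneuron markers, 6 of 9 subunits were below 0 with a median of -0.29, and Chrna4 was no longer called (-0.29). Centring shifts every gene of a library alike, so the median of all genes moved to 0.56, and the gap between the subunits and that median is fixed by construction and tests nothing. By mean level, 7 subunits were well counted (a mean of at least 100 normalized counts in at least 1 genotype), and Chrnb3 and Chrnb4 were low (10 to 100).

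**Figure D1:**
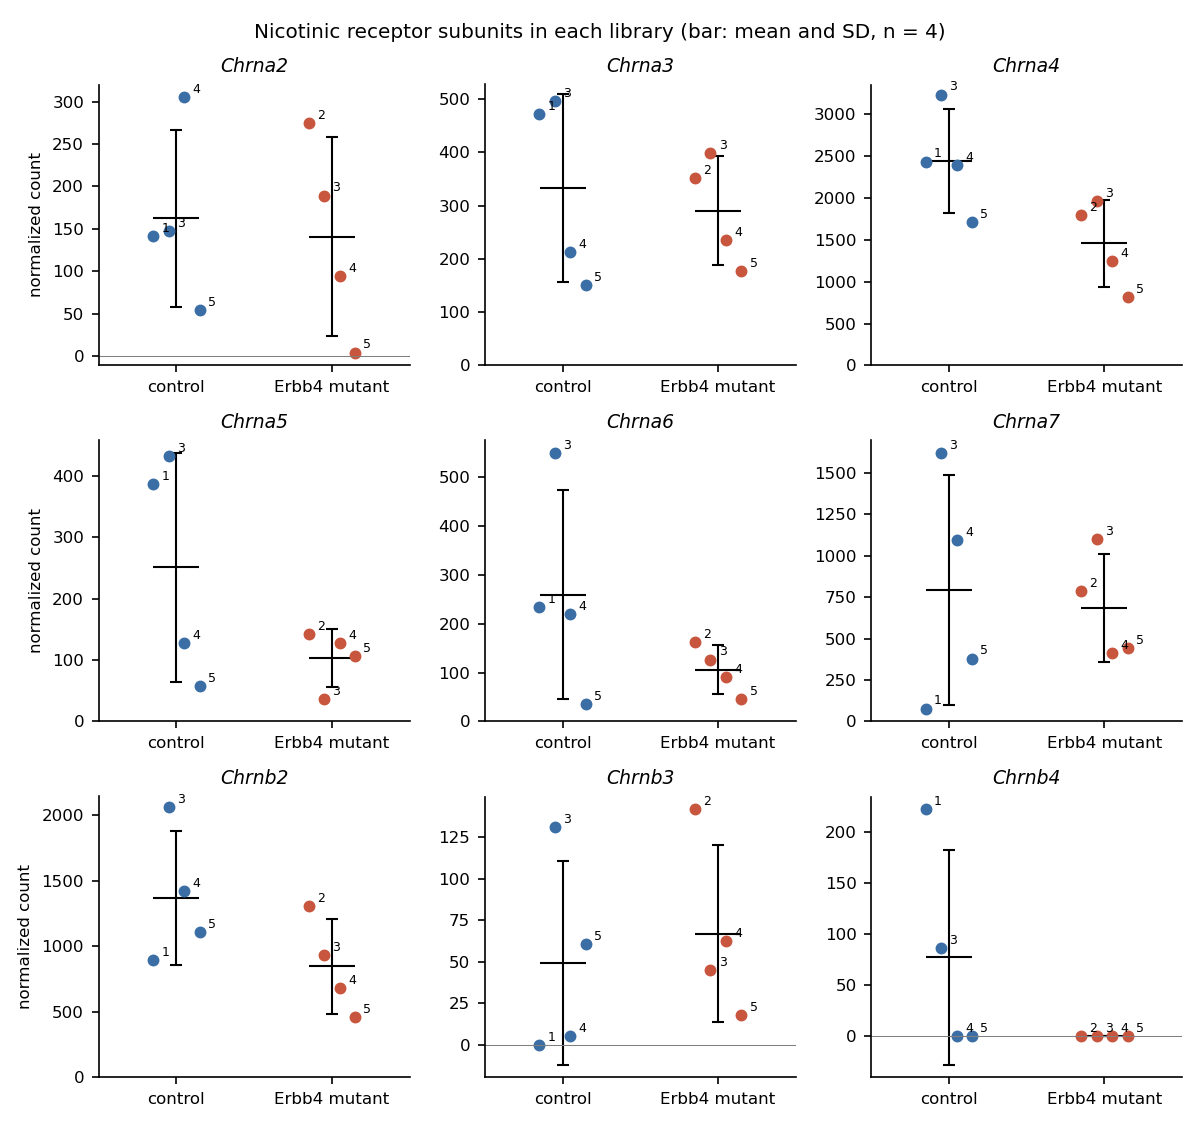
Normalized count (vertical axis) of each subunit in the 4 control and 4 Erbb4 mutant libraries. Points are libraries labelled with their replicate number, horizontal bars are means and whiskers SD. The genotypes overlap in all 9 panels, and the Chrna4 means of 2441 in controls and 1455 in mutants are set against library values from 820 to 3232.

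Chrna4, the ligand-binding alpha subunit of the main heteromeric receptor, lies at chr2:181022312-181039188 (mm10) and was the best counted subunit. Its normalized counts were 2432, 3232, 2389 and 1712 in controls 1, 3, 4 and 5 and 1789, 1964, 1249 and 820 in mutants 2, 3, 4 and 5. The control mean of 2441 ± 622 (SD, n = 4) stood against a mutant mean of 1455 ± 522 (SD, n = 4). The 3 controls numbered 1, 3 and 4 lay above every mutant, and control 5 lay below mutants 2 and 3. The log2 fold change was -0.79 (95% interval -1.46 to -0.12). Its unadjusted limma p was 0.024, while a two-sided exact permutation test of the same difference over the libraries gave p = 0.086, where the smallest possible value was 0.029. Between 826 and 3149 reads stood behind each value, so counting error (2.14% in controls, 2.53% in mutants) was far below the observed coefficients of variation of 25.5% and 35.9%. The value ranged from -0.96 to -0.54 when each library was left out in turn. The call was lost without control 3 (-0.64), without mutant 4 (-0.74) and without mutant 5 (-0.54), and it held without the library labelled control 1 (-0.78).

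Chrnb2 encodes the beta subunit that assembles with the Chrna4 product and lies at chr3:89746195-89764632. Its normalized counts were 893, 2060, 1417 and 1104 in controls 1, 3, 4 and 5 and 1307, 934, 682 and 460 in mutants 2, 3, 4 and 5. Only mutants 4 and 5 lay below every control, and the lowest control was the library labelled control 1. The control mean was 1369 ± 509 and the mutant mean 846 ± 363 (SD, n = 4 each). The log2 fold change of -0.73 (95% interval -1.51 to 0.06) was not called, with an unadjusted limma p of 0.066 and an exact permutation p of 0.14. Without the library labelled control 1 it was -0.91 and was called, and likewise without mutant 2 (-0.97), whereas without mutant 5 it was -0.47 and without control 3 it was -0.51. The Chrnb2 row overlaps Adar, an RNA-editing enzyme gene on the opposite strand, over 7260 bases, and because no source states whether reads were counted by strand, reads from the shared part cannot be assigned. In GENCODE exons the overlap was 1365 bases, 16.3% of the Chrnb2 exon bases. Adar was at 2165 to 6670 normalized counts in controls and at 4906 to 8482 in mutants, ranges that overlap and whose mutant values reach higher, unlike those of Chrnb2. A row of Il6ra, which encodes an interleukin receptor chain, covers the whole Chrnb2 row of 18438 bases and was at 167 to 410 normalized counts in controls and 295 to 334 in mutants.

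Chrna7, whose product forms the homomeric receptor, lies at chr7:63098692-63212571 and had the widest spread among controls, relative to its mean, of the well counted subunits. Its normalized counts were 77.7, 1619, 1095 and 380 in controls 1, 3, 4 and 5 and 789, 1099, 412 and 442 in mutants 2, 3, 4 and 5. The library labelled control 1 was far below the other 7, and controls 3 and 4 and mutant 3 were the highest. The control mean was 793 ± 697 and the mutant mean 685 ± 324 (SD, n = 4 each). The log2 fold change of 0.39 (95% interval -1.36 to 2.15; exact permutation p = 0.74) had the opposite sign to the difference in means. Without the library labelled control 1 it was -0.48, so no direction could be given for Chrna7. The row shares 2127 and 478 bases with a pair of unnamed rows, the latter of which was at 823 to 4155 normalized counts in controls and 990 to 2946 in mutants, so reads from the shared bases cannot be assigned.

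The promoters of these 3 best counted subunits are shown because Chrna4 and Chrna7 differ from Chrnb2 in base composition just upstream of their starts. Each sequence, from RefSeq (GRCm38.p6), spans 250 bases before to 50 bases after the start and is written on the gene's minus strand, 5′ to 3′. Capitals mark GC boxes, the letters GGGCGG or CCGCCC, to which transcription factors of the SP family are known to bind. The windows are chr2:181039128-181039427 for Chrna4, chr3:89764583-89764882 for Chrnb2 and chr7:63212477-63212776 for Chrna7.
Chrna4: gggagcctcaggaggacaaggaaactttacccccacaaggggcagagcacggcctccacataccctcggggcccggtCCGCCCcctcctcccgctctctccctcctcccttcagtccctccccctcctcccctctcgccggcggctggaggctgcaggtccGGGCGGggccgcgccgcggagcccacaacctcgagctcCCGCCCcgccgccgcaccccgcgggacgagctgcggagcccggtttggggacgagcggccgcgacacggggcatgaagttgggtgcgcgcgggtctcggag
Chrnb2: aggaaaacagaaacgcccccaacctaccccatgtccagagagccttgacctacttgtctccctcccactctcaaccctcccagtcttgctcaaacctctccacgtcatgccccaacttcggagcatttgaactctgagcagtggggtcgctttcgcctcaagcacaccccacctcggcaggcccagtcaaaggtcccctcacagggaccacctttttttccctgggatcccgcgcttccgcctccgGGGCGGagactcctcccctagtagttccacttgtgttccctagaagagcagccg
Chrna7: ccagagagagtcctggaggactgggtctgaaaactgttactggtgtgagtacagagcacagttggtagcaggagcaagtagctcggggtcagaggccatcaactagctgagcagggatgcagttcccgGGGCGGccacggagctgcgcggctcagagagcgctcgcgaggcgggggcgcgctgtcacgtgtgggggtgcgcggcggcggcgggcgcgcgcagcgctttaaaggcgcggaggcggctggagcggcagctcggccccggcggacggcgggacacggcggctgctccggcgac

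The Chrna4 window held 3 GC boxes, beginning 173, 89 and 51 bases before the start, whereas Chrna7 held 1 at 122 bases and Chrnb2 held 1 at 4 bases before it. Of 32851 mouse promoters of this length, 35.7% held at least 1 GC box on either strand. The Chrna4 and Chrna7 windows had 33 and 35 CpG dinucleotides, more than 91.4% and 93.0% of promoters, and the Chrnb2 window had 12 (more than 60.4%; median 7). The half-sites CAGCACC and GGACAGC of the RE1 element, to which the neuronal gene repressor REST binds, were looked for on both strands and were absent from these 3 windows, against 7.14% and 6.56% of promoters that held them. A match or its absence describes the letters in the window only. Promoters matched 6 of the 9 subunits, all but Chrna2, Chrna6 and Chrnb3.

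Chrna3, Chrna5 and Chrnb4 lie side by side on chromosome 9, and the Chrna3 and Chrnb4 products form the receptor best known from autonomic ganglia and the habenula. Chrna3 (chr9:55010117-55026563) was at 472, 496, 212 and 151 normalized counts in controls 1, 3, 4 and 5 and at 351, 399, 235 and 178 in mutants 2, 3, 4 and 5. All 4 mutants lay inside the control range, and the log2 fold change of -0.09 (95% interval -1.09 to 0.92; exact permutation p = 0.80) left room for a change of either sign. It turned positive without control 3 (0.16), without the library labelled control 1 (0.14) and without mutant 5 (0.12).

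Chrna5 (chr9:54980880-55011420), the accessory alpha subunit, was at 387, 433, 127 and 58.1 normalized counts in controls 1, 3, 4 and 5 and at 142, 36.0, 127 and 107 in mutants 2, 3, 4 and 5. Controls 1 and 3 stood above all other libraries, while controls 4 and 5 lay among the mutants. The log2 fold change was -1.03 (95% interval -2.59 to 0.53; exact permutation p = 0.26) and was not called. When 1 library was left out it was called only without control 5 (-1.59), and it was -0.59 without mutant 3, -0.63 without control 3 and -0.68 without the library labelled control 1. The Chrna3 and Chrna5 rows, on opposite strands, share 1304 bases, so some reads could belong to either gene.

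Chrnb4 (chr9:55028156-55048590), whose 3′ end lies 1592 bases from Chrna3, was at 222 and 86.2 normalized counts in controls 1 and 3 and at 0 in controls 4 and 5 and in all 4 mutants. These values were 163 and 84 reads in the library labelled control 1 and in control 3, so the gene was detected in 2 of 8 libraries. The control mean of 77.1 was at least 27.1-fold higher than the mutant floor of 2.85 normalized counts, which is 3 reads per library, yet controls 4 and 5 were also under the same floor. Without the library labelled control 1 the control mean was 28.7 and the limit 10.1-fold. The unadjusted limma p was 0.085, and the exact permutation p over the libraries was 0.43, so Chrnb4 was not called. On recovered reads both edgeR and DESeq2 called it lower, with adjusted p of 0.57 and 0.32. In limma it was also called when either of the controls at 0 was left out (-4.75), and not without the library labelled control 1 (-2.15), in log2 fold changes that depend on the pseudocount.

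Chrna6 and Chrnb3 are neighbours on chromosome 8, with 3484 bases between their rows, and their products are best known as partners in receptors of midbrain dopamine neurons and retinal projections. Chrna6 (chr8:27403214-27413944) was at 234, 549, 220 and 34.6 normalized counts in controls 1, 3, 4 and 5 and at 162, 126, 90.2 and 45.6 in mutants 2, 3, 4 and 5. Of the 4 controls, 3 lay above every mutant, and control 5 was the lowest library of all. Its log2 fold change was -0.88 (95% interval -2.58 to 0.82; exact permutation p = 0.37), and when 1 library was left out it was called only without control 5 (-1.66). It was -0.34 without control 3 and -0.75 without the library labelled control 1.

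Chrnb3 (chr8:27368710-27399729) was at 0, 131, 5.0 and 60.6 normalized counts in controls 1, 3, 4 and 5 and at 142, 45.2, 62.5 and 17.9 in mutants 2, 3, 4 and 5. The highest libraries were mutant 2 and control 3, and the lowest pair of libraries were controls. Its log2 fold change of 1.83 (95% interval -1.31 to 4.98; exact permutation p = 0.31) was the only other positive value beside Chrna7 and was 0.54 without the library labelled control 1, where it was listed at 0. The neighbouring genes thus had log2 fold changes of opposite sign, neither of which passed the test.

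Chrna2 encodes an alpha subunit known in the cortex from SST+ Martinotti cells of deep layers, and lies at chr14:66140960-66152948. Its normalized counts were 142, 148, 305 and 54.4 in controls 1, 3, 4 and 5 and 275, 189, 94.3 and 3.97 in mutants 2, 3, 4 and 5. The value of mutant 5 rested on 4 reads, against 44 to 322 in the other libraries. The log2 fold change was -0.96 (95% interval -3.44 to 1.51; exact permutation p = 0.69), and it was 0.31 without mutant 5 and -0.95 without the library labelled control 1. Control 5 and mutant 5, the libraries with the least Chrna2 in their genotypes, also had the least Sst (31270 and 5964 normalized counts, against 96107 to 367992 in the other controls and 27867 to 143143 in the other mutants). The same libraries had the least Pvalb (730 and 159) and Gad1 (1720 and 1130) of their genotypes, so this was not particular to Sst. Control 4, with the most Chrna2 (305), had less Sst (96107) than control 3 (367992), where Chrna2 was at 148. The 10 SST+ interneuron markers summed to 65702 to 516703 in controls and 19197 to 213240 in mutants. Of these markers, 9 of 10 were below 0 (median -1.09) and 1 was called lower, against 46.6% and 3.17% of all genes. Their part in the Chrna2 values was not tested.

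**Figure D2:**
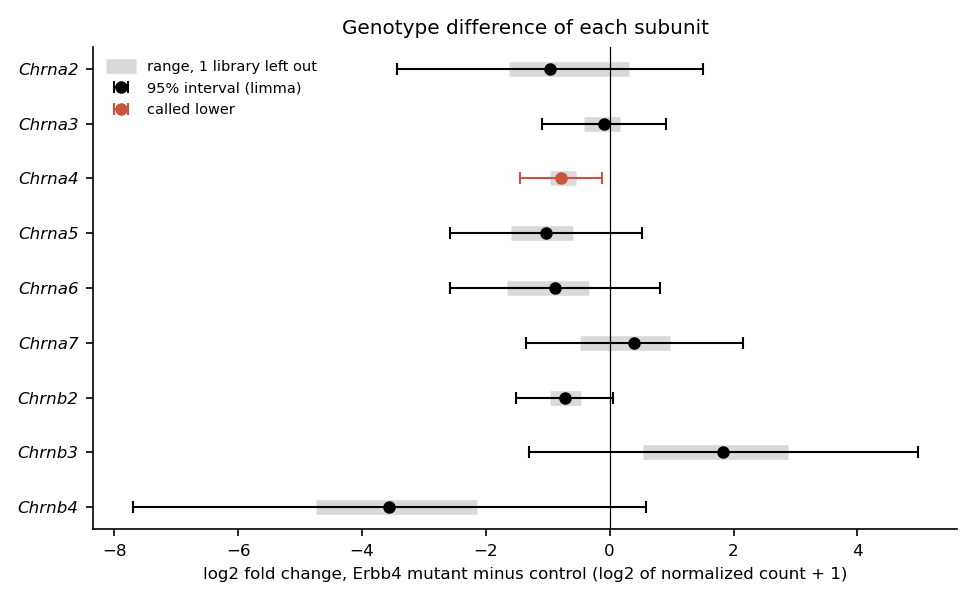
Log2 fold change of each subunit, Erbb4 mutants minus controls, on log2(normalized count + 1), with the 95% interval of the limma fit. Grey bars show the range of the value when 1 library was left out, and only the Chrna4 interval (-1.46 to -0.12, in red) lies wholly below 0.

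Levels were compared between subunits per kilobase of the longest GENCODE transcript, since longer transcripts collect more reads. In controls Chrna4 led with 535 ± 136 normalized counts per kilobase (SD, n = 4). Chrna7 followed at 282 ± 248 and Chrnb2 at 214 ± 79.5. The control ranges of Chrna4 (375 to 708) and Chrnb2 (140 to 322) did not overlap, while that of Chrna7 (27.6 to 575) overlapped both. A middle group was formed by Chrna5 at 103 ± 76.2, Chrna6 at 89.3 ± 73.4, Chrna3 at 76.3 ± 40.5 and Chrna2 at 45.7 ± 29.4. Chrnb4 and Chrnb3 were lowest at 20.7 ± 28.2 and 10.7 ± 13.3. Each subunit overlapped its neighbours in this order, so the order within the groups is not resolved by these libraries. In the mutants Chrna4 (319 ± 114), Chrna7 (244 ± 115) and Chrnb2 (132 ± 56.8) again ranked first, and Chrnb4 was at 0. The mutant ranges of Chrna4 (180 to 430) and Chrnb2 (72.0 to 204) did overlap. Per kilobase of coding sequence the control means were 1270 for Chrna4, 628 for Chrnb2, 526 for Chrna7 and 220 for Chrna3, so Chrnb2 and Chrna7 changed places with the choice of length. By coding length the control ranges of Chrna4 and Chrnb2 overlapped as well, so their separation depends on that choice. The lengths of the regions that were counted are not in the table used here.

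**Figure D3:**
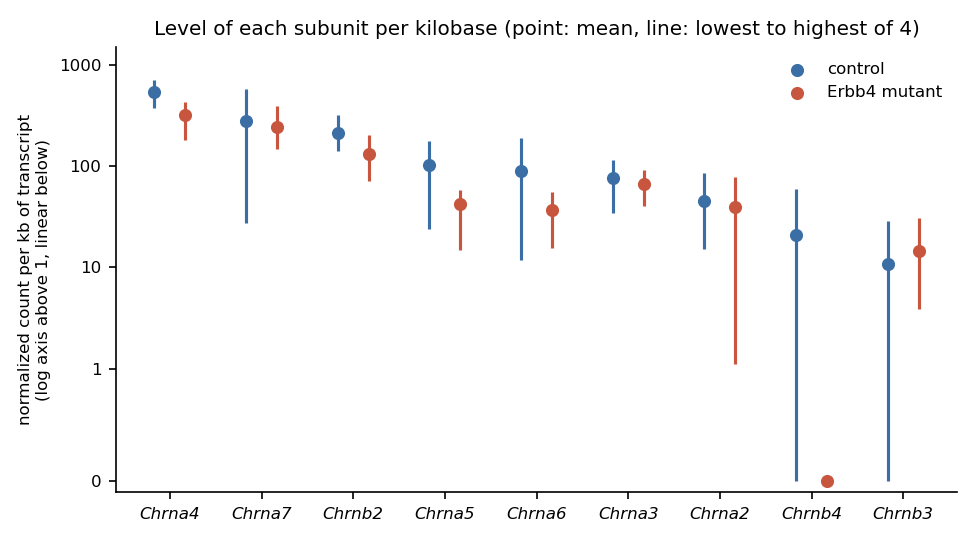
Normalized count per kilobase of the longest transcript (vertical axis, logarithmic above 1 and linear below) for each subunit. Points are means of 4 libraries and lines run from the lowest to the highest library. Chrna4 has the highest mean in both genotypes (535 and 319), and neighbouring subunits overlap in controls.

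The makeup of the subunit pool was described as each gene's percent of the summed normalized counts of all 9 subunits in a library. These shares carry no length correction and serve to compare genotypes, not subunits. Chrna4 made up 44.1 ± 6.07% in controls and 39.7 ± 2.68% in mutants (SD, n = 4). Chrnb2 made up 24.4 ± 5.22% and 22.8 ± 2.83%. Chrna7 made up 12.4 ± 8.16% and 18.5 ± 4.27%, with 1.60% in the library labelled control 1 and 10.7 to 22.9% in the other 7. The sum itself was 3555 to 8755 normalized counts in controls and 2074 to 4959 in mutants, so the ranges overlapped.

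Ratios of subunits within a library were taken on normalized counts plus 1. They depend little on the library's scaling where both subunits are well above 1. For 6 pairs they were compared between genotypes by two-sided exact permutation tests (4 against 4 libraries, smallest possible p = 0.029). The log2 ratio of Chrna4 to its partner Chrnb2 was 1.44, 0.65, 0.75 and 0.63 in controls 1, 3, 4 and 5 and 0.45, 1.07, 0.87 and 0.83 in mutants 2, 3, 4 and 5. The library labelled control 1 had the highest ratio, and all others lay between 0.45 and 1.07. The difference, mutant minus control, was -0.06 (95% interval -0.63 to 0.51; exact p = 0.83). The interval therefore bounds a change in this ratio to -0.63 on one side and 0.51 on the other, but it does not show that the ratio was equal. Without the library labelled control 1 the difference was 0.13.

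The other pairs were less precise. Chrna7 to Chrnb2 differed by 1.12 (95% interval -0.79 to 3.03; exact p = 0.23, 0.46 adjusted over the 6 pairs), and by 0.43 without the library labelled control 1, in which the log2 ratio was -3.51 against -1.54 to -0.35 in the other controls. Chrna4 to Chrna7, which sets the main heteromeric against the homomeric receptor, differed by -1.18 (95% interval -3.47 to 1.10; exact p = 0.23), and by -0.30 without that library. For both ratios the largest departure was thus a single control. Chrna3 to Chrnb4 differed by 3.47 (95% interval -0.67 to 7.62; exact p = 0.057, adjusted p = 0.34), a value set by the libraries with no Chrnb4 reads, and by 2.29 without the library labelled control 1. In the libraries with no Chrnb4 reads this ratio is the log2 of the Chrna3 count plus 1. There it does depend on the library's scaling and on the added 1. Chrna2 and Chrna5, set against Chrnb2, differed by -0.24 (95% interval -3.02 to 2.55) and -0.30 (-2.45 to 1.84), with exact p of 0.83 and 0.71. Neither kept its sign. Chrna5 to Chrnb2 was 0.22 without the library labelled control 1, 0.22 without mutant 3 and -0.78 without control 5, and Chrna2 to Chrnb2 was 0.78 without mutant 5, 0.11 without control 4 and -0.04 without the library labelled control 1. None of the 6 ratios passed the test.

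**Figure D4:**
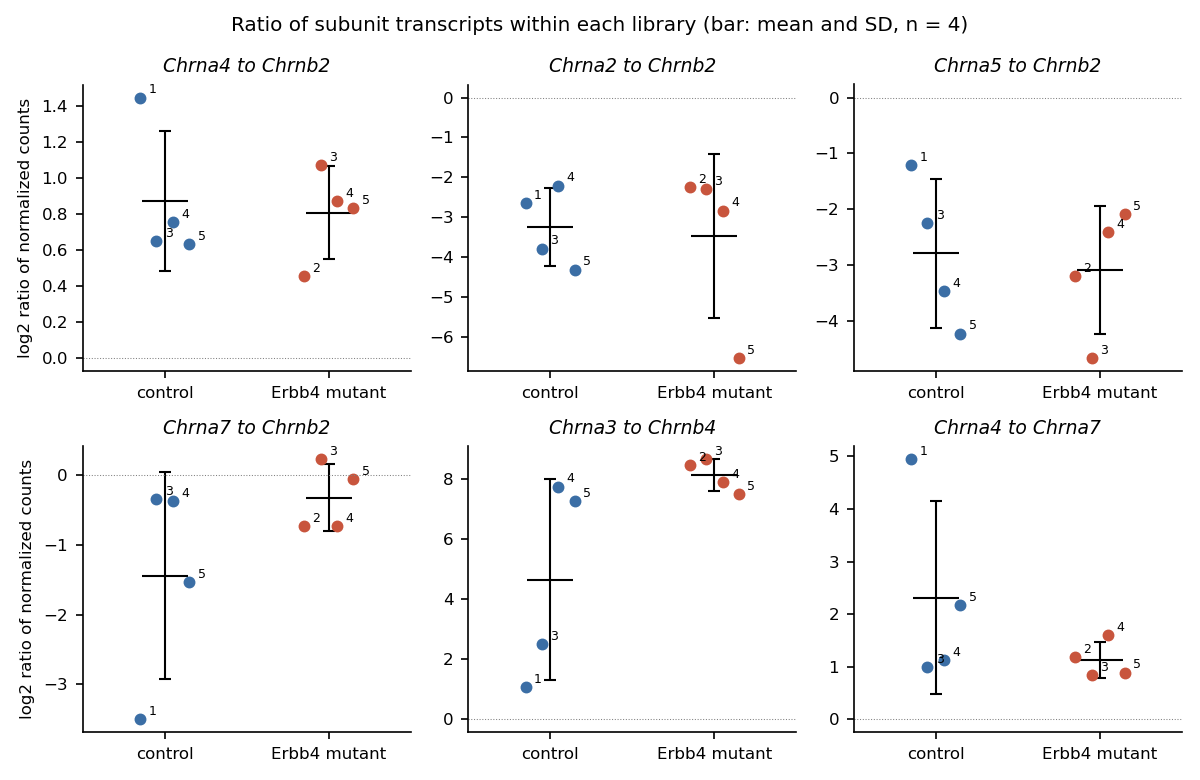
Log2 ratio of normalized counts, each plus 1, of a pair of subunits within each library (vertical axis), for the 6 pairs. Points are libraries with their replicate number, bars are means and whiskers SD (n = 4). The library labelled control 1 is the highest control for Chrna4 to Chrnb2 (1.44) and for Chrna4 to Chrna7 (4.95), and mutant 5 is lowest for Chrna2 to Chrnb2 (-6.54).

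Among the 7 remaining nicotinic subunits, which serve mainly muscle and hair cells, 3 were tested and 0 were called. Chrnb1 was the only one present at a steady level, 243 to 518 normalized counts in controls and 235 to 366 in mutants (log2 fold change -0.03, limma adjusted p = 0.98). Chrna1 was at 12.0 to 106 in controls and 1.85 to 77.8 in mutants. Chrna9 was above 0 in mutant 3 alone, at 51.7. Chrna10, Chrnd and Chrne were at 0 in all 8 libraries, and Chrng was above 0 in 1 library.

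Genes whose products act on nicotinic receptors were taken from lists of known function. Of 8 Ly6-family accessory genes, whose products bind to nicotinic receptors, 7 were tested, all 7 had log2 fold changes below 0 (median -0.69), and Ly6h was called lower, where 46.6% of all genes lay below 0 and 3.17% were called lower. Ly6h was at 8205 to 31875 normalized counts in controls and 5003 to 12496 in mutants (log2 fold change -1.02, limma adjusted p = 0.58), and its call was lost without any one of controls 1 and 3 and mutants 4 and 5 (-0.88 to -0.70). Lynx1, a membrane-anchored brake on nicotinic receptors, did not overlap between genotypes, at 16514 to 28425 in controls and 13924 to 15240 in mutants. Its log2 fold change of -0.58 (limma adjusted p = 0.58) was just short of the fold threshold. Non-overlap was met by 2.17% of all genes in the lower and 2.76% in the higher direction.

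Of 6 chaperone genes that help nicotinic receptors to fold, assemble or reach the surface, 5 had values below 0 (median -0.86) and 3 were called lower, against 46.6% and 3.17% of all genes. Unc50 fell by 0.90 on the log2 scale, from 2726 to 7313 normalized counts in controls to 1806 to 3203 in mutants. Vsnl1, a calcium sensor that binds the Chrna4 product, fell by 0.86, and Rer1, a sorting receptor of the early secretory pathway, fell by 0.86. The adjusted p in limma was 0.58 for each of the 3. Ric3 (-0.72) and Tmem35a (-0.92), the chaperones best known for the Chrna7 product, did not pass. Each of the 3 calls was lost without at least 1 library. Unc50 was lost without controls 1 and 3 or mutant 5 (-0.74 to -0.69), Vsnl1 without control 3 (-0.70), and Rer1 without controls 1 and 3 or mutants 4 and 5 (-0.74 to -0.66).

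The muscarinic receptors, the G protein-coupled receptors for acetylcholine, gave 5 of 5 values below 0 (median -0.63) and 1 of 5 called lower, again against 46.6% and 3.17% of all genes. Chrm3 was called lower and did not overlap, at 2311 to 3000 normalized counts in controls and 1160 to 2237 in mutants (log2 fold change -0.63, limma adjusted p = 0.58), and the call was lost without control 3 (-0.55), mutant 4 (-0.56) or mutant 5 (-0.45). Chrm1, the best counted, did not overlap either, at 21434 to 30010 against 18667 to 21232, but its log2 fold change of -0.32 was not called (limma adjusted p = 0.60). Of 6 genes for acetylcholine synthesis, transport and breakdown, 5 had values below 0 (median -0.94), and only Slc5a7, the choline transporter, was called (-0.99, limma adjusted p = 0.58), a call lost in 5 of the 8 fits that leave out a library: those without control 3 (-0.75), control 4 (-0.87), mutant 3 (-0.99), mutant 4 (-0.86) or mutant 5 (-0.77). Ache, the acetylcholine esterase, was at 15210 to 47422 in controls and 7615 to 27536 in mutants (-0.90, limma adjusted p = 0.58). Chat, the acetylcholine-synthesizing enzyme, was at 0 in 3 libraries and at most 49.1 in the rest. The medians of these lists, like that of the subunits, lay below 0. So did those of every marker list except the endothelial and mural one, and not of interneuron markers alone. Beside those given above, medians were -0.48 for interneurons of caudal ganglionic eminence origin, -0.44 for microglia and -0.35 for oligodendrocyte precursors. They were -0.15 for excitatory neurons and -0.11 for astrocytes. The part of these shifts was not tested.

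**Figure D5:**
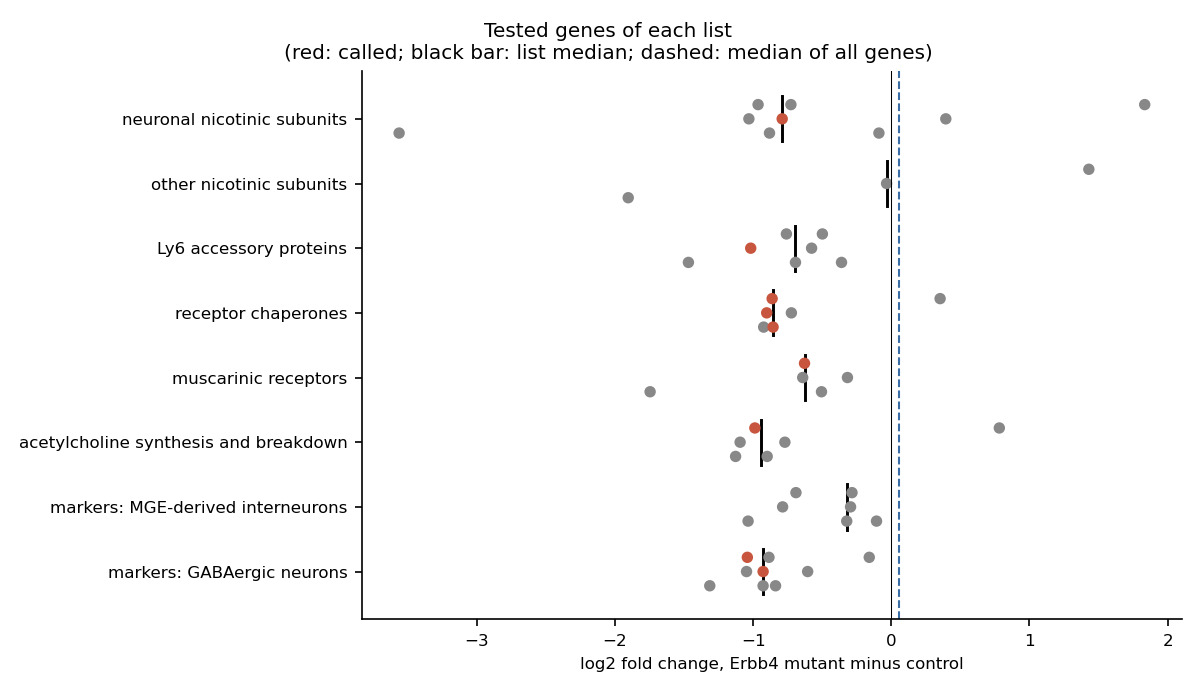
Log2 fold change, Erbb4 mutants minus controls (horizontal axis), of every tested gene in each list, with called genes in red, list medians as black bars and the median of all genes (0.06) as a dashed line. The median of the nicotinic subunits (-0.79) lies between those of the markers of MGE-derived interneurons (-0.32) and of GABAergic neurons (-0.93).

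For each well counted subunit, the genes with the most similar levels over the 8 libraries were sought. The measure was the root mean square difference of log2 values after centring. It was taken over 14038 named genes with a mean of at least 100 normalized counts in at least 1 genotype. Chrna4 ran closest to Fh1, the fumarase of the citric acid cycle (0.09), and to Slc27a4, a fatty acid transporter (0.11), against a median of 0.71 over the 14038 genes. Chrnb2 ran closest to D17H6S53E (0.17), and Chrna3 to Tcn2 (0.13) and Ctla2a (0.14). The differences were larger for Chrna6 with Tmem53 (0.28) and Hrob (0.44), for Chrna7 with Adcyap1r1, the receptor of the peptide PACAP (0.44), and Col25a1 (0.46), and for Chrna5 with Efemp1 (0.44) and Cldn23 (0.45). Their medians over the 14038 genes were larger too, at 1.28 for Chrna6, 1.37 for Chrna7 and 1.17 for Chrna5. Those of Chrnb2 and Chrna3 were 0.75 and 0.73. Chrna2 had the largest differences, with AA414768 at 0.87 and Lgr5 at 0.94, against a median of 1.87 over the 14038 genes. No subunit was among the nearest pair of another subunit.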

How the data were processed

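Ribosome-bound RNA from cortical synaptosomes was sequenced in 4 control and 4 mutant libraries, grouped by their labels. The authors aligned reads with STAR 2.4.0 to mm10, counted reads on constitutive regions of Mouse Fast DB genes and deposited a signal of normalized counts, reads divided by a DESeq2 size factor per library, with replicates kept apart. Whether counting used strand is not given in the sources used here. Of 8 value columns, all were used. Whole reads were recovered by dividing each library by its smallest value above 0, and 100% of values came out whole (tolerance 0.02).

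A gene entered the test when its mean reached 10 in either genotype. Values were tested on log2(normalized count + 1), a scale that understates the change of low genes, with limma 3.58.1 (eBayes with trend) in R 4.3.3 and Benjamini-Hochberg adjustment. Alternatives included edgeR 4.0.16 and DESeq2 1.42.0 on the recovered reads. Scripts were tested on simulated data in which 200 genes were changed. The study mentions a pair of sequencing batches, but the labels assign no library to one, so no within-batch value could be given and the part of batch was not tested. Named genes were the 9 subunits, Erbb4, listed genes that were called, did not overlap or were best counted, and the nearest pair of genes for each well counted subunit, of which 1 is not reported here. The PV+ interneuron markers that were called, Sst, Adar, Il6ra and the other rows that overlap a subunit were named after their values were seen. The subunits and gene lists were chosen with earlier results of these data known. The Chrnb4 limit without the library labelled control 1 was added after seeing the data.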

Additional observations from a re-analysis of the deposited data

Results flagged for a closer look

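Among 30 sets of 4 libraries (the 9 subunits and 6 ratios in each genotype), 2 held a library that lay apart from the other 3 by Dixon's criterion, where chance alone would give about 1.5. The log2 ratio of Chrna4 to Chrnb2 was 1.44 in the library labelled control 1, with the nearest control at 0.75. The log2 ratio of Chrna2 to Chrnb2 was -6.54 in mutant 5, with the nearest mutant at -2.84, and rested on 4 Chrna2 reads. What set these libraries apart was not tested.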

How the results depend on the processing

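The count of subunits called lower (1) was 0 when libraries were centred on MGE-derived interneuron markers (Chrna4 -0.29), 0 without the trend in limma, 0 at adjusted p under 0.05, and 2 with library weights (Chrna4, Chrnb2), edgeR (Chrna4, Chrnb4), DESeq2 (Chrna4, Chrnb4) and the replicate block (Chrna4, Chrnb2). It ranged from 0 (without control 3, mutant 4 or mutant 5) to 4 (without control 5) when 1 library was left out, and 0 subunits were called higher in any of these fits. The genes called of all tested (2229, of which 988 lower and 1241 higher) were 3626 with marker centring (81 lower, 3545 higher), 3630 with library weights, 14 at adjusted p, 1206 lower and 1073 higher by edgeR, 1573 lower and 1261 higher by DESeq2, and 1194 (without mutant 4) to 3767 (without control 5) with 1 library left out. The subunit median ranged from -0.97 to -0.47 over the fits that leave out a library. Reversed values were Chrna3 at 0.41 with marker centring, 0.023 with library weights and 0.022 with the replicate block; Chrna7 at -0.44 with library weights, -0.19 by edgeR, -0.18 by DESeq2 and -0.58 with the block; and Chrna2 to Chrnb2 at 0.081 with a pseudocount of 10. Leaving out a library gave -1.62 to 0.31 for Chrna2, -0.41 to 0.16 for Chrna3 and -0.48 to 0.98 for Chrna7. Marker centring shifts every gene alike, and the cause of the other changes was not tested. Replicate numbers belong to different animals. Same-numbered libraries correlated at 0.10, 0.098 and 0.082 in their deviations from the genotype means (mean 0.094), against a mean of -0.021 for the other combinations. Controls 3 and 4 correlated best with the mutant of their own number, and control 5 with mutant 4 (0.085). Controls 4 and 5 correlated positively with mutants 4 and 5 (0.082 to 0.098) and negatively with mutants 2 and 3 (-0.075 to -0.062). The labels state no pairing, so the main test took no pairs. What these libraries share was not tested. With the replicate block Chrna4 was at -0.91 (limma adjusted p = 0.12) and Chrnb2 at -1.15 (limma adjusted p = 0.10). The library labelled control 1 and mutant 2 had no same-numbered partner. These and the other values with the block thus rested on replicates 3, 4 and 5 alone. Requiring a mean of at least 100 leaves out Chrnb3 and Chrnb4. Reads ranged from 0 to 166 per library for Chrnb3 and from 0 to 163 for Chrnb4, and Chrna2 had 4 in mutant 5. In controls, counting error was 14.8% for Chrnb3 and 12.7% for Chrnb4, against observed coefficients of variation of 124% and 136%. The part of depth in these values was not tested.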
